A study of Mus musculus with 15 samples.

Results

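Collagen genes encode the chains of the main structural proteins of the extracellular matrix. They were taken here as all genes whose single symbol in the platform annotation has the form Col, a number, a and a number, and 36 of the 12393 genes of the array matched. Where a gene had several probe sets, as 19 of the 36 did, the brightest on average over the 15 arrays stood for it. The arrays measured mRNA of mammary epithelial cells prepared from digested mammary glands of female C57BL/6 mice after intraperitoneal injections. AzaC (5-azacytidine) inhibits DNA methylation, VPA (valproic acid) inhibits histone deacetylases, and PBS is the saline control. The mice are labelled pregnant at day 21, with 3 arrays under AzaC, 3 under VPA and 2 under PBS, or virgin at 9 weeks, with 3 under AzaC, 2 under VPA and 2 under PBS. The dose and the timing of the injections are not in the labels, nor is whether arrays of a group came from separate mice, so a p-value here gauges a difference against the variation of these samples only, which may be technical.

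Collagen chains wind around each other in the endoplasmic reticulum, where lysines and prolines are hydroxylated. The fibrillar collagens are trimmed and cross-linked outside the cell into fibres that carry tension, and in the mammary gland fibroblasts of the stroma make most of them. Type IV collagen instead forms the sheet-like network of the basement membrane, on which the myoepithelial cells rest and which also surrounds blood vessels and fat cells. FACIT collagens decorate fibrils, and transmembrane collagens anchor cells to the matrix.

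By class, the members were 9 fibrillar chains (Col1a1, Col1a2, Col2a1, Col3a1, Col5a1, Col5a2, Col5a3, Col11a1 and Col11a2) and 6 basement membrane chains (Col4a1 to Col4a6). There were also 9 FACIT chains (Col9a1, Col9a2, Col9a3, Col12a1, Col14a1, Col16a1, Col19a1, Col20a1 and Col22a1) and 3 chains of the beaded filaments of type VI (Col6a1, Col6a2 and Col6a3). The remainder were 3 transmembrane chains (Col13a1, Col17a1 and Col25a1), 2 network-forming chains (Col8a1 and Col10a1), 2 multiplexins (Col15a1 and Col18a1), the anchoring fibril chain Col7a1 and Col26a1. All 36 entered every test. A total of 31 were never listed at 0, while Col2a1 was listed at 0 on 12 arrays, Col10a1 and Col12a1 on 3 each, Col9a2 on 2 and Col4a4 on 1. The mean of 20 members over all arrays reached 7.04 on the log2 signal scale, the level below which 40% of all genes lie.

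The array medians lay between 7.22 and 7.47. Arrays of a group correlated at 0.948 to 0.979 across genes, and arrays of different groups at 0.922 to 0.978; genes are not independent replicates. Milk protein transcripts were among the brightest of each array, whichever its label: over Csn1s1, Csn2, Csn3, Wap and Lalba the lowest log2 signal was 13.41. Their summed signal, on the linear scale, was 77725 to 98060 on the arrays labelled pregnant and 77111 to 92427 on those labelled virgin. Milk proteins at this level are not the textbook picture of a virgin gland, so the stage is given below only as a label. RNA quality differed between arrays: the Gapdh 3' control exceeded its 5' control by 1.23 on virgin PBS array 2, 0.85 on pregnant AzaC array 1 and 0.82 on pregnant VPA array 3, against -0.17 to 0.47 on the other 12. The same difference for Actb ranked the arrays otherwise, at 1.44 on virgin PBS array 2, 1.20 on pregnant VPA array 3 and 0.68 on pregnant PBS array 2, with pregnant AzaC array 1 at 0.46. The 3 arrays left out below were picked by Gapdh alone.

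**Figure D1:**
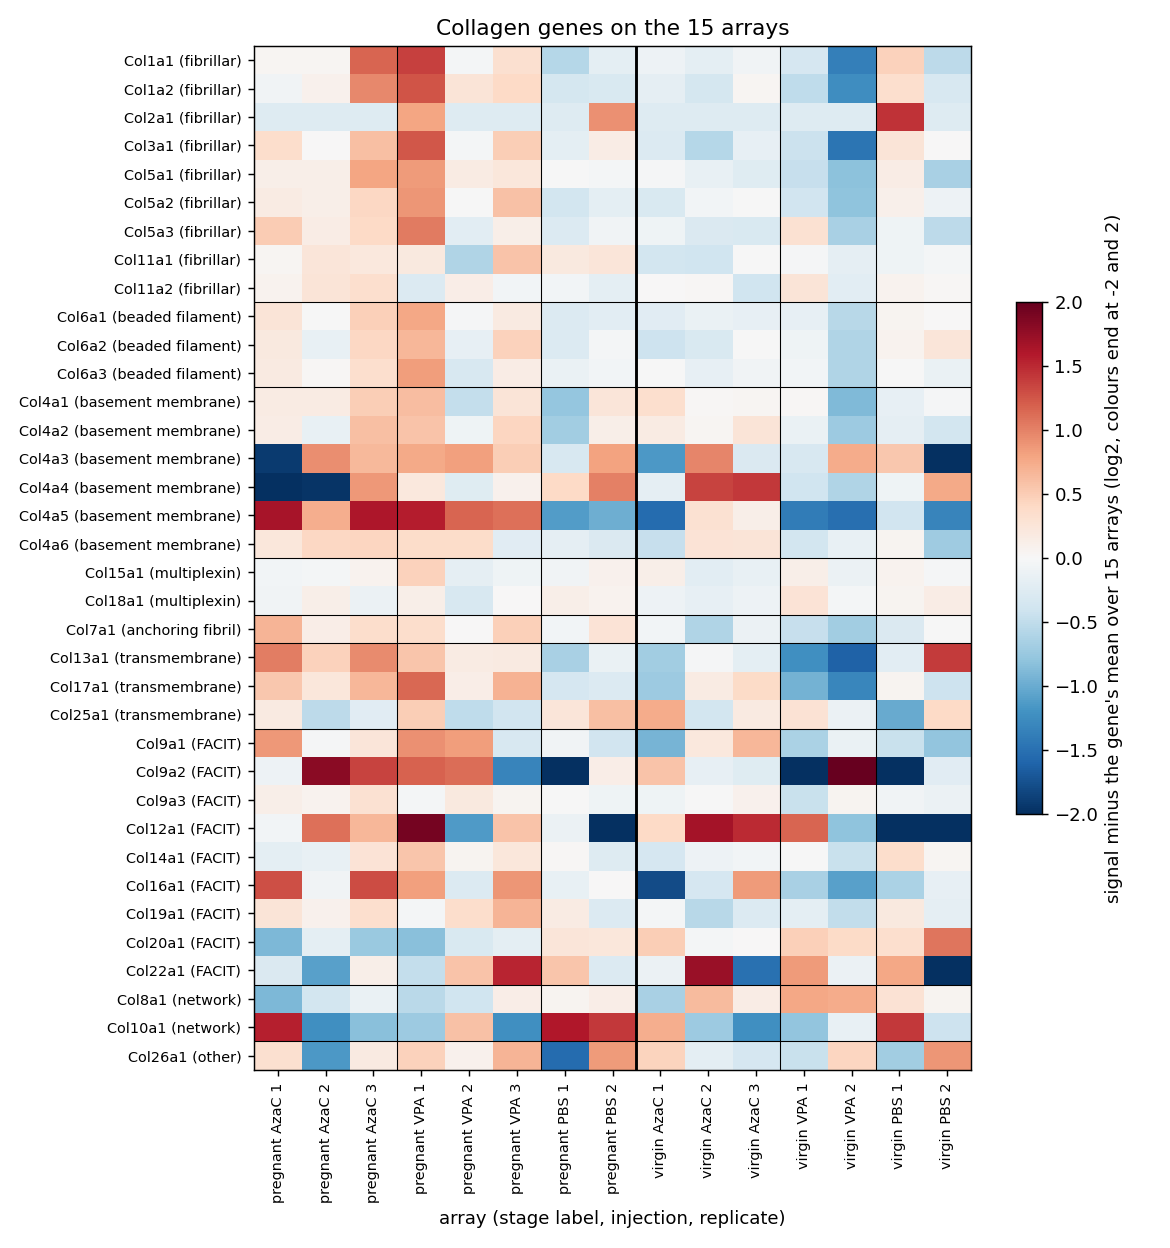
Signal of each of the 36 collagen genes on the 15 arrays, drawn as the difference from that gene's mean on the log2 scale; genes are ordered by class and arrays by group. Of the 9 fibrillar chains, 6 were highest on pregnant VPA array 1 and 6 lowest on virgin VPA array 2. The same was not counted over all genes.

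Differences between arrays were unevenly spread over the family. In the chosen probe sets Col18a1 and Col15a1, the basement membrane zone collagens that release the fragments endostatin and restin, varied least. Their ranges over the 15 arrays were 0.60 and 0.67. A second probe set of Col18a1 varied more, from 7.42 to 8.73. The widest ranges, 3.68 to 4.31, belonged to the dim members Col9a2, Col12a1, Col4a4, Col22a1 and Col4a3, whose means lay between 2.11 and 3.29. Next came Col4a5 with a range of 3.19 and Col16a1 with 3.10. Pregnant VPA array 1 had the highest signal for 15 of the 36 members, 6 of them among the 9 fibrillar chains. Virgin VPA array 2 had the lowest signal for 15 of 36, again with 6 of the 9 fibrillar chains. The same was not counted over all genes, so these counts are not shown to be particular to collagen genes. Pregnant VPA array 1 also had the highest median of all arrays, 7.47.

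Col4a5, which encodes a chain of the specialised type IV networks and is mutated in human Alport syndrome, was the only member called against PBS. On arrays labelled pregnant its log2 signals were 11.19, 10.27 and 11.16 under AzaC, 11.11, 10.71 and 10.64 under VPA and 8.43 and 8.57 under PBS. All 6 drug arrays lay above both PBS arrays, with a gap that exceeded the spread within any of these groups. With the virgin label they were 8.0, 9.85 and 9.67 under AzaC, 8.15 and 8.04 under VPA and 9.17 and 8.23 under PBS, and here the AzaC arrays overlapped PBS while both VPA arrays lay just below it.

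Relative to PBS on arrays labelled pregnant, Col4a5 rose by 2.37 ± 0.50 under AzaC (log2 change ± SE; limma adjusted p = 0.0221) and by 2.32 ± 0.50 under VPA (limma adjusted p = 0.0265). The 95% intervals were 1.28 to 3.47 and 1.22 to 3.42. AzaC and VPA differed from each other by 0.05 ± 0.45 (limma adjusted p = 1). It was the one collagen gene past the threshold of 0.05 in either drug comparison, where 7.57% of all genes were called under AzaC (3.76% rose) and 5.98% under VPA (3.64% rose). The share of members called was thus no larger than that of all genes. At an unadjusted p under 0.05 there were 5 members under AzaC and 7 under VPA, beside 26.2 and 24.9% of all genes. Both comparisons use the same 2 PBS arrays, so they are not independent of each other.

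A second probe set for Col4a5 changed by 2.23 ± 0.80 under AzaC and by 2.06 ± 0.80 under VPA, but neither passed over all probe sets (limma adjusted p = 0.118 and 0.157). Under AzaC the call was lost without pregnant PBS array 1 (change 2.30, adjusted p = 0.132), PBS array 2 (2.44, 0.107), AzaC array 1 (2.21, 0.0736) or AzaC array 3 (2.23, 0.0768). Under VPA it was lost without any one of the 5 arrays compared, with changes of 2.17 to 2.41 and a highest adjusted p of 0.143; VPA arrays 1, 2 and 3 gave 0.0678, 0.0636 and 0.0566, and PBS arrays 1 and 2 gave 0.143 and 0.142. Without the 3 arrays of highest Gapdh difference the changes were 2.21 and 2.41 (adjusted p = 0.0698 and 0.0666). The AzaC call was also lost with the compared groups fitted alone (adjusted p = 0.0662), and the VPA call with the mean of both probe sets (change 2.19, adjusted p = 0.0586). Against a minimum change of 1.5-fold neither passed (adjusted p = 0.183 under AzaC and 0.223 under VPA). Nor did either pass with the replicate number as a block. The labels do not say whether these numbers pair the arrays.

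Col4a6, the chain that pairs with Col4a5 in the α5α5α6 network, lies head to head with it on the X chromosome. The annotated transcript starts used below are 1343 bases apart. On arrays labelled pregnant the Col4a6 signals were 9.73, 9.91 and 9.94 under AzaC, 9.87, 9.87 and 9.28 under VPA and 9.32 and 9.22 under PBS. In this probe set the AzaC arrays were above PBS, while 1 VPA array lay between the PBS arrays. The changes were 0.59 ± 0.29 under AzaC and 0.40 ± 0.29 under VPA (limma adjusted p = 0.220 and 0.425). A second probe set of Col4a6 gave 9.24, 8.64 and 9.16 under AzaC, 8.87, 8.36 and 8.15 under VPA and 7.72 and 7.16 under PBS, so that all 6 drug arrays lay above both PBS arrays. It changed by 1.57 ± 0.45 under AzaC and 1.02 ± 0.45 under VPA and did not pass over all probe sets (limma adjusted p = 0.0622 and 0.210). With the mean of both probe sets the gene changed by 1.08 under AzaC and 0.71 under VPA, and quantile normalization gave 0.25 under VPA. With the virgin label the signals of the first probe set were 9.04, 9.77 and 9.76 under AzaC, 9.13 and 9.36 under VPA and 9.56 and 8.79 under PBS, with overlap between the drug and PBS arrays.

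The 250 bases before an annotated transcript start of 4 members are shown from RefSeq (GRCm38.p6). The first pair was taken because the 2 genes lie head to head, and the second because both were among the members called below. Capitals mark CCAAT and GGGCGG, read on either strand as ATTGG and CCGCCC, the letters of the CCAAT box and of the GC box that Sp1 binds. Col4a5 lies at chrX:141475169-141475418 on the plus strand, Col4a6 at chrX:141474077-141474326 on the minus strand, Col1a2, a chain of type I collagen, at chr6:4505368-4505617 on the plus strand, and Col3a1, the chain of type III collagen, at chr1:45311288-45311537 on the plus strand.
Col4a5: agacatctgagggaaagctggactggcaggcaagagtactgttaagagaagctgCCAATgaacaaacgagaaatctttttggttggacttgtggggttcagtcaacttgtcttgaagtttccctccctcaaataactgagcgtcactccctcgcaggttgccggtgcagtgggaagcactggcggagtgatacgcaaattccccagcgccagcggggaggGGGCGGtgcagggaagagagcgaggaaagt
Col4a6: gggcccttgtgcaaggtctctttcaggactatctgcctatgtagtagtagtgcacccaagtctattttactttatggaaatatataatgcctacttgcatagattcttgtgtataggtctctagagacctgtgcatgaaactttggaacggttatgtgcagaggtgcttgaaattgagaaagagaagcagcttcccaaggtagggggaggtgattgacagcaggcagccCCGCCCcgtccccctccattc
Col1a2: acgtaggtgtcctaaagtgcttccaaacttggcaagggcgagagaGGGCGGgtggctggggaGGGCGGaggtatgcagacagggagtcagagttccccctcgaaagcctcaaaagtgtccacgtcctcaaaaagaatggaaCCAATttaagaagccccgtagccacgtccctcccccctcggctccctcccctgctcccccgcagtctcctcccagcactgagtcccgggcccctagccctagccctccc
Col3a1: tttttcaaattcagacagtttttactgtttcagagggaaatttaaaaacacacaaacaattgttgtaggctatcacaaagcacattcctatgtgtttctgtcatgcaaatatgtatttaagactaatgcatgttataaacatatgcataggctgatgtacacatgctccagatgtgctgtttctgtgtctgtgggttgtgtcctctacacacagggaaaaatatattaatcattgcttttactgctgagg

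The Col4a5 window holds 1 CCAAT and 1 GGGCGG, and the Col4a6 window 1 GGGCGG. The gene records begin at chrX:141475370 for Col4a5 and chrX:141474095 for Col4a6, so the last bases of these windows lie within the genes. The GGGCGG of Col4a5 lies wholly in that stretch and that of Col4a6 partly. The Col1a2 window holds 1 CCAAT and 2 GGGCGG, and the Col3a1 window holds neither. Of all 32851 promoter windows of this length, 33.85% hold CCAAT and 32.74% hold GGGCGG. CpG dinucleotides, the sites of DNA methylation, number 10 in the Col4a5 window, 3 in that of Col4a6, 11 in that of Col1a2 and 0 in that of Col3a1. The median over all windows is 6. A promoter was matched for 27 of the 36 members. A match of letters is a description of the sequence, and no methylation was measured on these arrays.

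**Figure D2:**
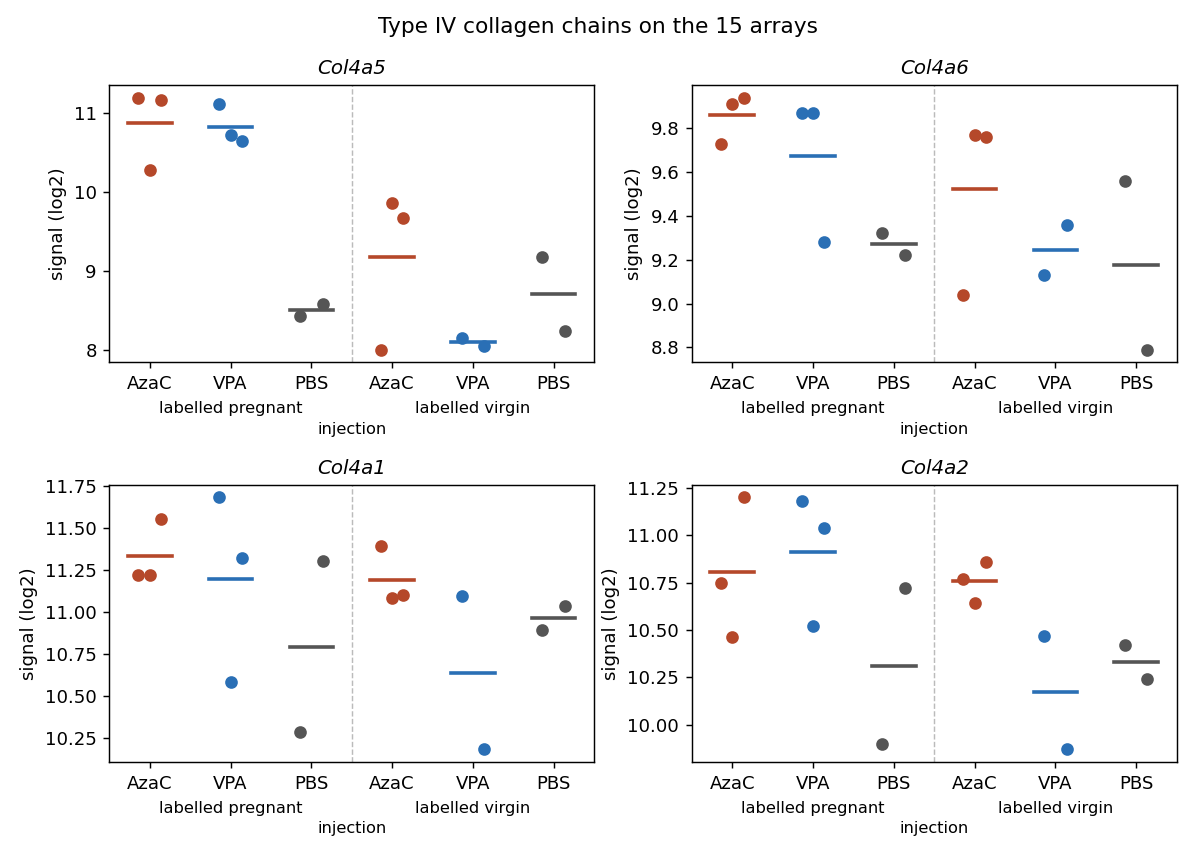
Log2 signal of 4 type IV collagen chains (Col4a5, Col4a6, Col4a1 and Col4a2) on each array, by injection and stage label; points are arrays and lines are group means. For Col4a5 the 6 drug arrays labelled pregnant lie between 10.27 and 11.19 and the 2 PBS arrays at 8.43 and 8.57.

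Col4a1 and Col4a2 encode the chains of the type IV network found in nearly all basement membranes. Col4a1 signals on arrays labelled pregnant were 11.22, 11.22 and 11.55 under AzaC, 11.68, 10.58 and 11.32 under VPA and 10.28 and 11.30 under PBS. For Col4a2 they were 10.75, 10.46 and 11.20 under AzaC, 11.18, 10.52 and 11.04 under VPA and 9.90 and 10.72 under PBS. In both genes PBS array 1 was the lowest and PBS array 2 lay within the drug arrays, so that the groups overlapped.

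Col4a1 signals with the virgin label were 11.39, 11.08 and 11.10 under AzaC, 11.09 and 10.18 under VPA and 10.89 and 11.03 under PBS. Those of Col4a2 were 10.77, 10.64 and 10.86 under AzaC, 10.47 and 9.87 under VPA and 10.42 and 10.24 under PBS, and virgin VPA array 2 was the lowest in both genes. Neither gene passed: Col4a1 changed by 0.54 ± 0.37 under AzaC and 0.40 ± 0.37 under VPA relative to PBS on arrays labelled pregnant (limma adjusted p = 0.395 and 0.550). The Col4a2 changes were 0.49 ± 0.30 and 0.60 ± 0.30 (limma adjusted p = 0.337 and 0.248). Without pregnant PBS array 1 the Col4a1 change under VPA was -0.11.

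Col4a3 and Col4a4, whose products join Col4a5 in the basement membrane of the kidney glomerulus, had low signals throughout. Those of Col4a3 on arrays labelled pregnant were 1.38, 4.23 and 3.94 under AzaC, 4.05, 4.12 and 3.78 under VPA and 2.97 and 4.10 under PBS, and on arrays labelled virgin 2.14, 4.27 and 3.01 under AzaC, 2.97 and 4.03 under VPA and 3.84 and 0.59 under PBS. Col4a4 gave 0, 0.64 and 3.47 under AzaC, 2.82, 2.36 and 2.70 under VPA and 3.01 and 3.62 under PBS on arrays labelled pregnant, and 2.42, 3.96 and 4.02 under AzaC, 2.21 and 2.0 under VPA and 2.52 and 3.36 under PBS on those labelled virgin. Arrays of the same group differed by up to 3.47 in these 2 genes, and neither was called in any comparison.

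Of the 9 fibrillar chains, 7 had a positive change in the chosen probe set under each drug relative to PBS on arrays labelled pregnant. Of all 12393 genes, 6560 did under AzaC and 6737 under VPA. No fibrillar chain passed by limma there (0 at an unadjusted p under 0.05 under AzaC and 2 under VPA, beside 26.2 and 24.9% of all genes). Other probe sets could go the other way. A second of Col5a3 gave 6.80, 7.08 and 6.55 under AzaC and 6.77, 6.84 and 6.95 under VPA against 7.31 and 7.57 under PBS. A second of Col3a1 gave 8.40, 9.13 and 9.10 under AzaC and 9.31, 9.07 and 8.46 under VPA against 9.18 and 9.23 under PBS. Type I collagen is a trimer of Col1a1 and Col1a2 chains. Col1a1 signals were 10.68, 10.68 and 11.80 under AzaC, 12.01, 10.59 and 10.95 under VPA and 10.07 and 10.44 under PBS. Col1a2 signals were 11.42, 11.57 and 12.44 under AzaC, 12.74, 11.74 and 11.88 under VPA and 11.14 and 11.18 under PBS. In these probe sets all 6 drug arrays exceeded both PBS arrays, with AzaC array 3 and VPA array 1 standing highest, but a second probe set of each gene overlapped PBS. There AzaC array 2 and VPA array 2 gave 9.53 and 9.92 for Col1a1 against 9.35 and 10.09 under PBS, and 9.34 and 9.51 for Col1a2 against 9.03 and 9.58 under PBS.

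Col1a1 changed by 0.80 ± 0.49 under AzaC and 0.93 ± 0.49 under VPA (limma adjusted p = 0.329 and 0.265). The Col1a2 changes were 0.65 ± 0.38 and 0.96 ± 0.38 (limma adjusted p = 0.304 and 0.145). Type III collagen, made from Col3a1, forms the thin reticular fibres of soft tissue. Col3a1 signals were 12.54, 12.19 and 12.79 under AzaC, 13.43, 12.14 and 12.68 under VPA and 11.98 and 12.33 under PBS, with AzaC and VPA arrays on both sides of PBS array 2. Its changes of 0.35 ± 0.38 and 0.60 ± 0.38 did not pass (limma adjusted p = 0.606 and 0.363).

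Type V collagen nucleates fibrils and limits their width. Col5a2 signals on arrays labelled pregnant were 9.84, 9.80 and 10.09 under AzaC, 10.56, 9.67 and 10.27 under VPA and 9.31 and 9.49 under PBS. Drug and PBS arrays did not overlap in this probe set, but in a second they did. There AzaC array 2 and VPA array 2 gave 6.66 and 6.70 against 6.20 and 6.78 under PBS. In the first probe set the change was 0.51 ± 0.25 under AzaC and 0.77 ± 0.25 under VPA (limma adjusted p = 0.216 and 0.0894). Without VPA array 2 the VPA change was 1.02 and passed (adjusted p = 0.0486). Col5a1, which encodes the other main chain of this type, gave 8.45, 8.45 and 9.11 under AzaC, 9.17, 8.49 and 8.55 under VPA and 8.31 and 8.29 under PBS. Drug arrays again lay above PBS, by 0.37 ± 0.29 under AzaC and 0.44 ± 0.29 under VPA (limma adjusted p = 0.467 and 0.391).

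**Figure D3:**
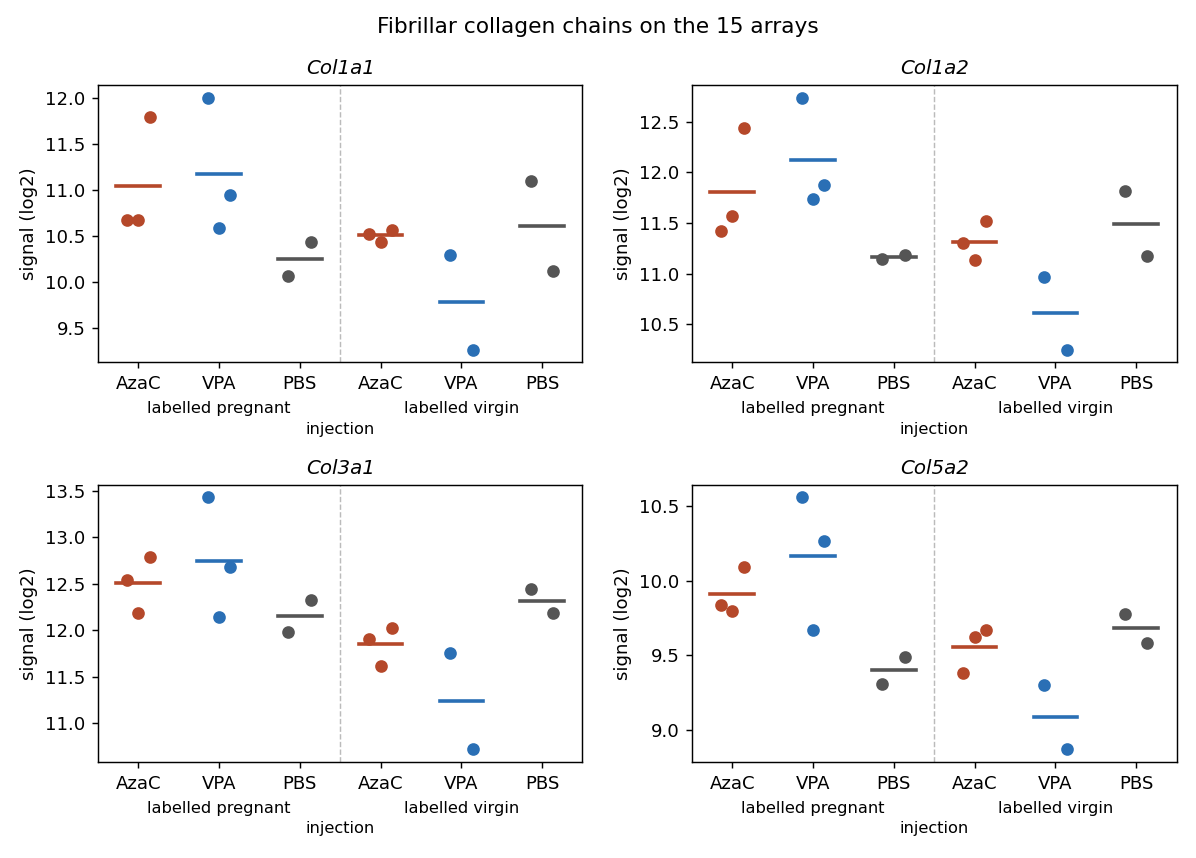
Log2 signal of Col1a1, Col1a2, Col3a1 and Col5a2 on each array, by injection and stage label; points are arrays and lines are group means. In the probe sets drawn, the 2 VPA arrays labelled virgin lie below both PBS arrays of that label for Col1a2, Col3a1 and Col5a2.

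On arrays labelled virgin the fibrillar chains took another order. Col1a1 signals were 10.53, 10.44 and 10.57 under AzaC, 10.30 and 9.27 under VPA and 11.10 and 10.12 under PBS. Col1a2 signals were 11.30, 11.13 and 11.52 under AzaC, 10.97 and 10.25 under VPA and 11.82 and 11.17 under PBS. Virgin VPA array 2 was the lowest of all 15 arrays in both. Col3a1 signals were 11.91, 11.62 and 12.02 under AzaC, 11.76 and 10.72 under VPA and 12.44 and 12.19 under PBS. In this probe set both drug groups lay below PBS. A second probe set of Col3a1 gave 8.62, 9.12 and 8.94 under AzaC, 8.50 and 9.20 under VPA and 8.83 and 8.49 under PBS. There both drug groups overlapped PBS.

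Col5a2 gave 9.38, 9.62 and 9.67 under AzaC, 9.30 and 8.87 under VPA and 9.78 and 9.58 under PBS on these arrays, and Col5a1 gave 8.30, 8.17 and 8.09 under AzaC, 7.86 and 7.50 under VPA and 8.47 and 7.67 under PBS. The AzaC and PBS arrays overlapped in both of these type V genes. The Col3a1 change under VPA, -1.08 ± 0.41, was among the 3 smallest p-values of the family but did not pass (limma adjusted p = 0.648). No member passed in either drug comparison on arrays labelled virgin by limma, where 0 genes of the whole array were called under AzaC and 0.00807% under VPA. At an unadjusted p under 0.05 there were 2 members under AzaC and 5 under VPA, beside 6.85 and 6.87% of all genes. Without virgin PBS array 1 the Col13a1 change under VPA was -2.81. That fit leaves a single control array, virgin PBS array 2, where Col13a1 was at its highest of all 15 arrays (6.20). The same array had the largest Gapdh difference, 1.23, and Col13a1 was dim, with a mean of 4.80.

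Set side by side by class, the median change under AzaC on arrays labelled pregnant was 0.37 over the 9 fibrillar chains and 0.52 over the 6 basement membrane chains. Under VPA the medians were 0.49 for fibrillar and 0.43 for basement membrane chains. Over all genes they were 0.04 under AzaC and 0.06 under VPA. On arrays labelled virgin the fibrillar median was -0.18 under AzaC and -0.60 under VPA, and the basement membrane median was 0.45 under AzaC and -0.24 under VPA, against 0.06 and 0.05 over all genes. The basement membrane medians cover chains from Col4a4 at -1.94 to Col4a5 at 2.37 in the first of these comparisons, whereas fibrillar chains lay between -0.58 and 0.80. These medians are descriptions of 2 short lists and carry no test.

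Over all 36 members, 25 had a positive change under AzaC and 28 under VPA on arrays labelled pregnant, with medians of 0.32 and 0.42. Of all 12393 genes, 6560 were positive under AzaC and 6737 under VPA. The AzaC arrays lay wholly above PBS for 15 members and wholly below for 3, beside 23.5 and 20.9% of all genes. The VPA arrays lay wholly above PBS for 9 members and below for 3, beside 25.7 and 17.6%. On arrays labelled virgin, AzaC lay wholly above PBS for 3 members and below for 6 (11.5 and 6.8% of all genes), and VPA above for 2 and below for 13 (20.8 and 15%). The medians there were -0.10 and -0.30. AzaC and VPA differed in no member by limma under either label, with 0 members at an unadjusted p under 0.05 on arrays labelled pregnant and 2 on those labelled virgin (0 genes of the array called, and 3.78 and 6.56% at that unadjusted level).

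**Figure D4:**
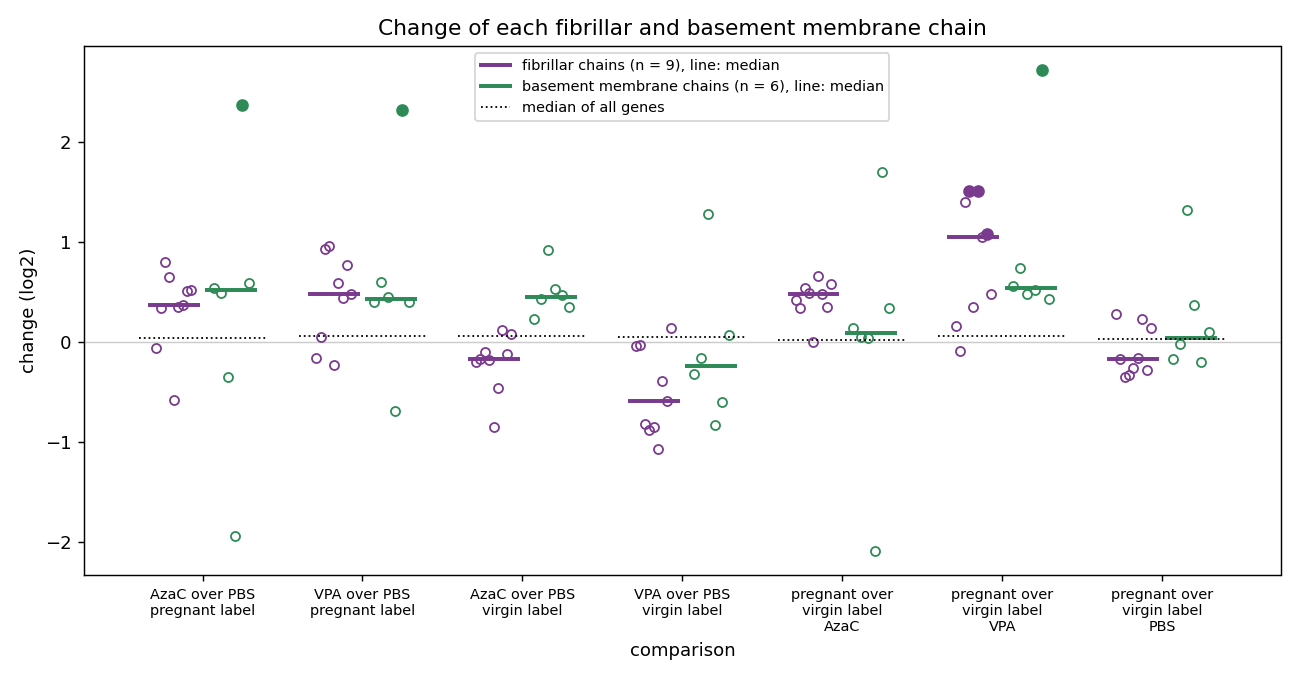
Log2 change of each fibrillar and basement membrane chain in 7 comparisons; circles are genes, filled where the limma adjusted p was under 0.05, solid lines are class medians and dotted lines the median of all genes. Fibrillar medians ran from -0.60 for VPA over PBS with the virgin label to 1.06 for the pregnant over the virgin label under VPA.

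Between the stage labels under VPA some collagen genes were called, but the calls depended on single arrays and settings, as given below. There 6 of the 36 members were higher on arrays labelled pregnant than on arrays labelled virgin, none was lower, and 6.66% of all genes were called (3.7% rose). At an unadjusted p under 0.05 there were 16 members, beside 25.1% of all genes. The pregnant VPA arrays lay wholly above the virgin ones for 15 members and below for 2, beside 26.2 and 19.8%. Median changes were 1.06 for fibrillar and 0.54 for basement membrane chains, against 0.06 over all genes. They comprised 3 of the 9 fibrillar chains, 1 of the 6 basement membrane chains and 2 of the 3 transmembrane chains. Relative to the virgin label, Col4a5 rose by 2.73 ± 0.50 (limma adjusted p = 0.0193), Col1a2 by 1.51 ± 0.38 and Col3a1 by 1.51 ± 0.38 (limma adjusted p = 0.0403 for each), and Col5a2 by 1.08 ± 0.25 (limma adjusted p = 0.0318). The signals of these genes are given above, and in each the 3 pregnant VPA arrays lay above both virgin VPA arrays. A second probe set of Col3a1 changed by 0.10 in the same comparison, while the second of Col1a2 changed by 1.77 and passed too. Other probe sets of Col5a1 (1.15) and Col6a2 (1.18), not those chosen for the gene, passed as well.

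The other pair of called genes code for transmembrane collagens. Col17a1 belongs to the hemidesmosome, which ties basal epithelial cells to the basement membrane. Its signals on arrays labelled pregnant were 8.20, 7.88 and 8.32 under AzaC, 8.81, 7.79 and 8.35 under VPA and 7.33 and 7.38 under PBS, and on arrays labelled virgin 6.93, 7.83 and 8.04 under AzaC, 6.71 and 6.35 under VPA and 7.72 and 7.25 under PBS. VPA arrays stood above PBS with the first label and below it with the second. Between the VPA groups it rose by 1.79 ± 0.35 on the pregnant label (limma adjusted p = 0.0211), whereas VPA against PBS on that label gave 0.96 ± 0.35 (limma adjusted p = 0.125).

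Col13a1, found at cell-matrix junctions and at the neuromuscular synapse, gave 5.83, 5.27 and 5.75 under AzaC, 5.35, 4.97 and 4.98 under VPA and 4.15 and 4.67 under PBS on arrays labelled pregnant. With the virgin label it gave 4.10, 4.78 and 4.61 under AzaC, 3.58 and 3.19 under VPA and 4.59 and 6.20 under PBS. The pregnant VPA arrays exceeded the virgin VPA arrays, as did both virgin PBS arrays. The rise with the pregnant label under VPA was 1.72 ± 0.40 (limma adjusted p = 0.0336), but only 0.12 (adjusted p = 0.956) with values under 5 set to 5. Against PBS on arrays labelled pregnant its AzaC change was 1.21 ± 0.40 (limma adjusted p = 0.0892). Its changes with the virgin label were -0.90 ± 0.40 under AzaC and -2.01 ± 0.44 under VPA (limma adjusted p = 0.714 and 0.397).

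The 6 calls depended on single arrays and on the settings. None was left without pregnant VPA array 1, without virgin VPA array 1 or without virgin VPA array 2; 4 were left without pregnant VPA array 2 and 1 without pregnant VPA array 3, an array of high Gapdh difference. Without the 3 arrays of highest Gapdh difference 1 was left. A minimum change of 1.5-fold left 0, the compared groups fitted alone left 2 and a floor at 5 left 3.

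Under AzaC no collagen gene passed between the labels by limma (6 at an unadjusted p under 0.05), while 1.23% of all genes did (0.121% rose) and 18.4% had such a p. The nearest was Col4a5, at 1.70 ± 0.45 (limma adjusted p = 0.0928), which passed without pregnant AzaC array 2. Median changes were 0.48 for fibrillar and 0.09 for basement membrane chains, and 28 of 36 members were positive, beside 6418 of all 12393 genes. The pregnant AzaC arrays lay wholly above the virgin ones for 13 members and below for 1, beside 8.81 and 14% of all genes. Under PBS none passed and 1 had an unadjusted p under 0.05 (0.00807% of all genes called, 4.2% at the unadjusted level). Col4a5 there differed by -0.20 ± 0.55 (limma adjusted p = 1), and the pregnant PBS arrays were wholly above the virgin ones for 3 members and below for 6, beside 15 and 13.4%.

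Whether a drug effect differed between the labels was tested as the difference of the 2 changes against PBS. No collagen gene passed by limma for AzaC (2 at an unadjusted p under 0.05; 0 genes of the array called, 12.8% at that level). None passed for VPA either (10 at an unadjusted p under 0.05; 0.315% of all genes called, 18.9% unadjusted). The largest differences for VPA were 2.93 ± 0.74 in Col4a5 and 2.70 ± 0.60 in Col13a1 (limma adjusted p = 0.0863 and 0.0713). For AzaC these genes gave 1.90 ± 0.71 and 2.11 ± 0.57 (limma adjusted p = 0.294 and 0.194). The Col4a5 difference from PBS on arrays labelled pregnant is therefore not shown to be particular to that label. Both Col13a1 differences rest on virgin PBS arrays 1 and 2, which gave 4.59 and 6.20. Leaving out either leaves a single control array of that label.

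Of the FACIT chains, 2 were among the smallest p-values of a drug comparison. Col20a1 gave 6.92, 7.62 and 7.08 under AzaC, 6.98, 7.51 and 7.62 under VPA and 8.06 and 8.05 under PBS on arrays labelled pregnant and 8.31, 7.78 and 7.82 under AzaC, 8.30 and 8.20 under VPA and 8.15 and 8.89 under PBS on arrays labelled virgin. With the pregnant label every drug array was below both PBS arrays, and the change under AzaC was -0.85 ± 0.29 (limma adjusted p = 0.0946). The change under AzaC with the virgin label was -0.55 ± 0.29 (limma adjusted p = 0.714). The 3 probe sets of Col20a1 disagreed, and their mean changed by 0.062 and 0.59 in these comparisons.

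Col12a1, whose product bridges type I fibrils, was dim. It gave 2.23, 3.39 and 2.94 under AzaC, 4.19, 1.15 and 2.86 under VPA and 2.16 and 0 under PBS on arrays labelled pregnant, and 2.68, 3.94 and 3.77 under AzaC, 3.44 and 1.48 under VPA and 0 and 0 under PBS on arrays labelled virgin. As it was listed at 0 on both virgin PBS arrays, no fold is given. The limma adjusted p was 0.550 for AzaC and 0.674 for VPA against PBS with that label.

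The type VI chains Col6a1, Col6a2 and Col6a3, which form beaded filaments around cells, gave no call. Their changes relative to PBS on arrays labelled pregnant were 0.27 to 0.49 under AzaC and 0.31 to 0.56 under VPA. With the virgin label they were -0.40 to -0.01 under AzaC and -0.50 to -0.26 under VPA. At an unadjusted p under 0.05 there was 1 of the 3, under VPA with the pregnant label, beside 24.9% of all genes.

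Among the enzymes that modify and fold collagen, 14 of 18 listed genes were measured. Under AzaC with the pregnant label 1 rose and 1 fell, and under VPA 1 rose, beside 7.57 and 5.98% of all genes called in these comparisons (3.76 and 3.64% rose). Colgalt1, which adds galactose to hydroxylysine, had signals of 10.39, 10.07 and 10.17 under AzaC, 10.03, 10.16 and 10.46 under VPA and 8.86 and 8.85 under PBS. The drug arrays lay above PBS without overlap, by 1.36 ± 0.29 in each comparison (limma adjusted p = 0.0232 and 0.0256). P4hb, the disulphide isomerase subunit of prolyl hydroxylase, fell by 0.78 under AzaC (limma adjusted p = 0.0274). Under VPA it was not called, but its signals of 12.98, 12.84 and 12.73 also lay below the 13.41 and 13.28 under PBS.

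In procollagen processing and cross-linking, 10 of 14 genes were measured and 1 rose in each comparison, beside the same 3.76 and 3.64% of all genes. This was Tgm2, tissue transglutaminase, at 10.40, 9.85 and 10.80 under AzaC, 10.48, 10.29 and 10.64 under VPA and 8.59 and 8.74 under PBS. It rose by 1.69 ± 0.40 under AzaC and 1.81 ± 0.40 under VPA (limma adjusted p = 0.0309 and 0.0298). Of 16 measured basement membrane partners out of 17, 2 rose under AzaC and 1 under VPA, again beside 3.76 and 3.64% of all genes. With lists this short, 1 or 2 calls say little about a list. Agrn, the proteoglycan agrin, rose by 1.42 ± 0.33 under AzaC (limma adjusted p = 0.0291). Under VPA it was not called, but its signals of 11.74, 11.36 and 11.23 also lay above the 10.07 and 10.34 under PBS, by 1.24. The laminin chain Lamc3 rose by 0.77 ± 0.19 under AzaC and 0.72 ± 0.19 under VPA (limma adjusted p = 0.0349 and 0.0496).

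Of the 14 fibril-associated proteoglycans and glycoproteins, all measured, 0 passed under AzaC by limma (3 at an unadjusted p under 0.05, beside 26.2% of all genes) and 1 rose under VPA (3.64% of all genes). It was Dcn, decorin, which binds type I fibrils, with signals of 11.12, 11.41 and 12.06 under AzaC, 12.31, 11.77 and 12.03 under VPA and 10.71 and 10.63 under PBS. It rose by 1.37 ± 0.36 under VPA (limma adjusted p = 0.0499). The 5 measured collagen receptors of 8 gave no call by limma, with 0 under AzaC and 1 under VPA at an unadjusted p under 0.05, beside 26.2 and 24.9% of all genes. With the virgin label none of the 59 measured genes of these 5 lists passed in either drug comparison by limma, with 3 at an unadjusted p under 0.05 under AzaC and 2 under VPA, beside 6.85 and 6.87% of all genes.

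**Figure D5:**
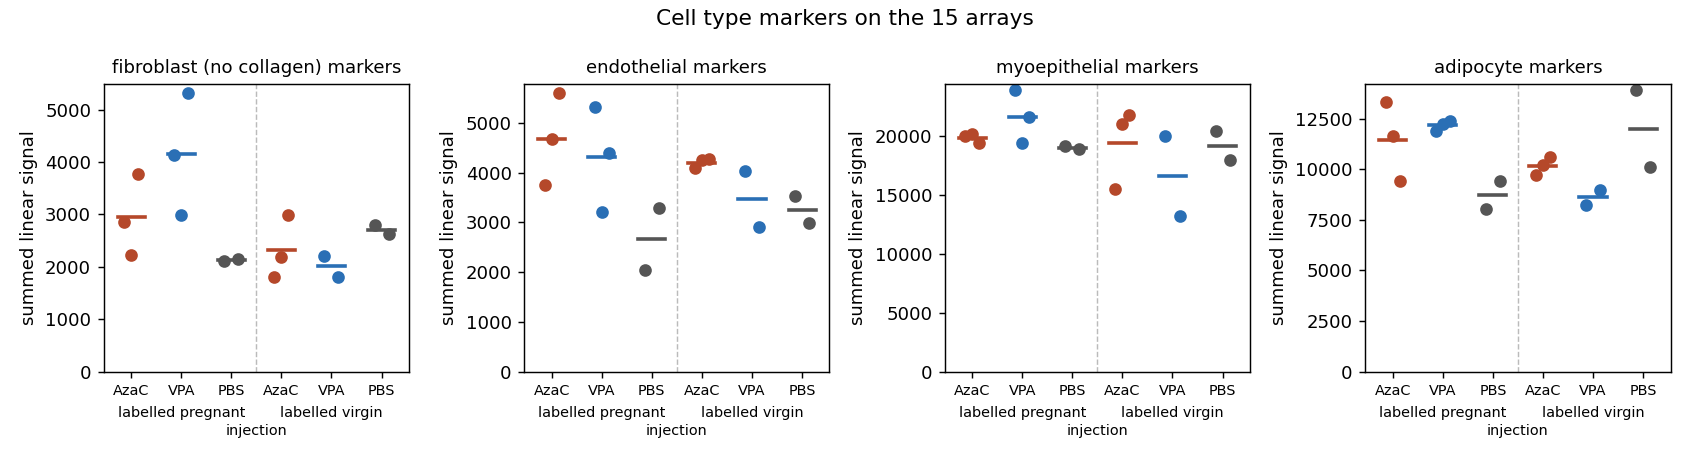
Summed linear signal of marker genes of other cell types on each array, by injection and stage label; points are arrays and lines are group means. Fibroblast markers reach 5323 on one VPA array labelled pregnant and lie at 2105 and 2145 on the PBS arrays of that label.

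No marker of cells other than the labelled epithelium was listed at 0 on any array, although some were dim, such as Tcf21 of the fibroblast list at 2.64 to 4.31, and a signal above 0 does not show that a gene was detected. The summed signals are given beside the collagen values only, and no association between them was computed. Bright genes weigh most in such a sum, as Dpt did in the fibroblast list (11.08 on pregnant VPA array 3). The 14 fibroblast markers, which hold no collagen, summed on the linear scale to 2221 to 3776 under AzaC, 2994 to 5323 under VPA and 2105 to 2145 under PBS with the pregnant label. With the virgin label the sums were 1806 to 2996 under AzaC, 1812 to 2213 under VPA and 2620 to 2795 under PBS. Pregnant VPA arrays 3 and 1 had the highest sums, 5323 and 4143, and virgin AzaC array 1 and virgin VPA array 2 the lowest, 1806 and 1812. None of these 14 markers passed a drug comparison by limma, and their median change was 0.46 under AzaC and 0.81 under VPA with the pregnant label and -0.42 and -0.48 with the virgin label. Between the labels under VPA it was 0.91, and 1 of 14 rose, beside 3.7% of all genes. In bulk samples fewer cells of a type and less RNA per cell cannot be told apart, and the part of fibroblasts in the fibrillar changes was not tested.

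The 10 endothelial markers summed to 3759 to 5615 under AzaC, 3202 to 5328 under VPA and 2041 to 3292 under PBS with the pregnant label. Of them 1, Cldn5, rose under each drug, beside 3.76 and 3.64% of all genes under AzaC and VPA. The 5 pericyte markers summed to 2399 to 3776 under AzaC, 2340 to 3134 under VPA and 1718 to 2082 under PBS. The 9 myoepithelial markers, of cells that lie on the basement membrane, summed to 19379 to 20206 under AzaC, 19440 to 23928 under VPA and 18870 to 19158 under PBS. The 5 measured adipocyte markers of 8 summed to 9412 to 13327 under AzaC, 11898 to 12357 under VPA and 8016 to 9397 under PBS, and the 7 macrophage markers to 4273 to 5118 under AzaC, 4848 to 5851 under VPA and 3493 to 4173 under PBS. Luminal epithelial markers, 7 in all, summed to 42200 to 50274 under AzaC, 42725 to 50474 under VPA and 27513 to 27668 under PBS. Of them 1, Cldn4, rose under VPA, beside 3.64% of all genes. Endothelial and luminal sums on the virgin label were 4089 to 4273 and 28266 to 44903 under AzaC, 2919 to 4032 and 31199 to 31463 under VPA, and 2987 to 3529 and 28663 to 30295 under PBS. Luminal sums on virgin AzaC arrays 1, 2 and 3 were 28266, 43199 and 44903, where Col4a5 gave 8.0, 9.85 and 9.67. On virgin VPA arrays 1 and 2 they were 31463 and 31199 beside 8.15 and 8.04. On virgin PBS arrays 1 and 2 they were 30295 and 28663 beside 9.17 and 8.23. Myoepithelial sums on that label were 15525 to 21760 under AzaC, 20024 and 13230 under VPA and 17970 to 20437 under PBS. The lowest of all arrays was virgin VPA array 2. There Acta2, the brightest marker of the list, was at its lowest (12.94), while Trp63 (7.67) was within its range on the other arrays. Adipocyte sums were 9690 to 10609 under AzaC, 8227 and 8981 under VPA and 10083 and 13928 under PBS. Both VPA arrays thus lay below PBS, as they did in the chosen probe sets of Col1a2, Col3a1 and Col5a2. Pericyte sums were 2285 to 2639 under AzaC, 2199 to 2264 under VPA and 2056 to 2309 under PBS, and macrophage sums 3300 to 5146 under AzaC, 3780 to 4095 under VPA and 3747 to 5000 under PBS. The part of any of these cells in the collagen values was not tested.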

How the data were processed

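The 15 arrays are single-colour Affymetrix arrays hybridised with biotinylated cRNA, per the labels' protocols. The deposited table holds log2 signals of 22690 probe sets; they were read as log2 from their range (0 to 14.48), since the base of the logarithm, the summary, the background correction and the normalization are not given in the sources used here. Between 2.29 and 2.59% of values per array are exactly 0, and the interquartile ranges were 3.73 to 4.05, so the values were used as deposited. The number of arrays limits the precision.

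Probe sets were named with the platform annotation of 2016: 20380 had 1 symbol, 691 had several and 1619 had none or were controls (64); only the first were used. A model with a mean for each of the 6 groups was fitted to all 15 arrays and 12393 genes with limma 3.58.1 in R 4.3.3 (lmFit, eBayes, two-sided, Benjamini-Hochberg over all genes, threshold 0.05), giving 9 residual and 2.31 prior degrees of freedom. Data were also simulated for AzaC against PBS with the pregnant label. There 47 of 100 genes raised by 1 and 88 of 100 lowered by 2 (log2) were recovered, and 9 unchanged genes were called. Whether the simulated noise resembles that of these arrays was not tested. The rates are therefore no measure of recovery for the collagen genes, some of which are dim.

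The members, lists and alternatives were chosen with earlier results of these data known. Arrays are described one by one for members past the threshold in any of 11 comparisons, the main fibrillar and all type IV chains, and the 3 smallest p-values of each drug comparison. Genes outside the family come from fixed lists, at most 3 per list. The labels do not say whether equal replicate numbers pair the arrays. Over 33 pairs of equal number, deviations from group means correlated at -0.424 to 0.655. The median was 0.012, against -0.016 for pairs of other numbers. Deviations within a group of 2 arrays mirror each other, so this check cannot exclude a pairing, for example in some of the groups. Promoters are from RefSeq and figures were drawn with matplotlib 3.10.9. The alternatives were quantile normalization, no dim genes (mean under 7.04), the mean of a gene's probe sets, trend and robust eBayes, the compared groups alone, a replicate block, a minimum change of 1.5-fold, a floor at 5, the Gapdh difference as a covariate and leaving out each array.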

Additional observations from a re-analysis of the deposited data

How the results depend on the processing

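The number of collagen genes called was small and moved with most settings; the cause was not tested beyond what each setting changes by construction. Leaving out the 3 arrays of the highest Gapdh difference was chosen after seeing the data; a pseudocount was not run, as the values are on a log scale. With the replicate number as a block, 0 genes passed for AzaC and 0 for VPA against PBS with the pregnant label, against 1 in each without the block, and 0 against 6 between the labels under VPA. A minimum change of 1.5-fold also gave 0 in each of these 3. For AzaC, with the pregnant label, the count was 2 without dim genes (Col20a1, lower, and Col4a5), 2 with the Gapdh covariate (Col13a1 and Col4a5), 0 with the compared groups alone and 0 without the 3 arrays of high Gapdh difference. For VPA it was 2 without dim genes (Col4a5 and Col5a2), 0 with the mean of probe sets and 0 without those 3 arrays. Between the labels under VPA it was 2 with the compared groups alone, 3 with a floor at 5 and 1 without those 3 arrays. Between the labels under AzaC it was 1 without dim genes and 1 with trend and robust settings, against 0. For the VPA effect, pregnant minus virgin label, it was 1 without dim genes, 2 with trend and robust settings and 1 with the compared groups alone, against 0.

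Leaving out each array in turn gave 0 to 2 for AzaC and 0 to 1 for VPA against PBS with the pregnant label, and 0 to 4 between the labels under VPA. It gave 0 to 1 for the labels under AzaC. For VPA against PBS with the virgin label, and for both differences of a drug effect between the labels, the count moved in a fit with a single virgin PBS array. Without AzaC array 3 the gene called was Col4a4, and without VPA array 2 it was Col5a2, in place of Col4a5. The change of Col4a5 lay between 2.21 and 2.68 under AzaC over 15 alternatives, past the threshold in 7, and between 2.14 and 2.41 under VPA, past it in 6. With the mean of probe sets Col20a1 changed sign under AzaC, to 0.062 with the pregnant and 0.59 with the virgin label. Leaving out each array gave changes of -0.11 to 0.91 for Col4a1 under VPA, the lowest without pregnant PBS array 1. Values near 0 come from dim probe sets, and Col4a3, Col4a4 and Col12a1 are limited by that.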

Other observations

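Of the members not described above, 2 were picked after their values were seen. Col9a1, a chain of type IX collagen, which is best known from cartilage, gave log2 signals of 11.21 to 13.05 over the 15 arrays, and its mean exceeded that of 97.95% of all genes' probe sets on this scale, which is no comparison of transcript numbers. Relative to PBS it changed by 0.60 under AzaC and 0.71 under VPA with the pregnant label and was not called. Col16a1, a FACIT chain, gave 7.44, 6.09 and 7.46 under AzaC, 6.98, 5.88 and 7.04 under VPA and 6.01 and 6.16 under PBS with that label, so that 1 array of each drug group lay apart from the others, and it was not called either.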
